A study of Mus musculus with 6 samples.

Results

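The TGF-beta and BMP pathway was followed through 35 genes for its ligands, receptors, SMAD proteins, inhibitors and response genes. The genes were chosen by symbol, and all 35 were found among the 21899 genes listed. The cells were induced regulatory T cells (iTregs), and their mRNA was sequenced in bulk from 6 samples. They came from control mice, named iWT (WT, 3 samples), and from Dlst-Treg iKO mice, an inducible deletion of Dlst aimed at Treg cells (KO, 3 samples). In both groups splenic CD4+ T cells spent 2 days under Treg-polarising conditions together with 4-hydroxytamoxifen, which switches on inducible Cre recombinase. The sort then took CD4+ cells with both FoxP3-GFP and tdTomato-RFP signal, and it is given for both groups, so controls carried the reporters and received the drug too. The labels give neither the promoter that drives Cre, nor the age of the mice, nor whether each sample is a separate animal or culture. Spread between samples, the yardstick of each p-value here, may therefore be partly technical. The Dlst protein is a core enzyme of the TCA cycle, the E2 component of 2-oxoglutarate dehydrogenase.

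The TGF-beta precursor is cleaved by furin and secreted in a latent form, which latent TGF-beta binding proteins tether outside the cell. The active ligand joins a type II receptor (TGFBR2) to a type I receptor (TGFBR1), which phosphorylates SMAD2 and SMAD3, and these enter the nucleus with SMAD4. BMPs act through BMPR2 and receptors such as BMPR1A on other SMADs, and the Id genes are their classical targets. The pathway limits itself: SMAD7, SKI, SKIL, PMEPA1 and the SMURF ligases, several of them TGF-beta targets, block receptors or SMADs. In T cells TGF-beta acts together with IL-2 to turn on Foxp3, and it is the usual cytokine of Treg polarisation. The composition of the polarising medium is not given in the labels.

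Libraries held from 33590510 to 49772670 estimated counts. The Treg and CD4 T cell markers were present in every library: Foxp3 lay between 154 and 231 CPM (counts scaled to library size), and Cd4 between 432 and 522 CPM. Dlst was at 161, 149 and 149 CPM in WT and 125, 129 and 129 CPM in KO. All KO samples thus lay below all WT samples, but Dlst did not pass (log2 fold change -0.26, SE 0.05, adjusted p = 0.0894 by edgeR's quasi-likelihood test). That value counts reads over the gene as a whole, not over the deleted exons. KO replicate 1 stood apart from the rest: mRNAs of 4 Y-linked genes summed to 253 CPM there and to at most 1.25 CPM in the other 5 libraries. Mitochondrial mRNAs took 2.76% of its counts, against 1.43% to 1.70% elsewhere. Neutrophil markers summed to 309 CPM in KO replicate 1, to 76.0 and 78.4 CPM in the other KO samples and to between 5.94 and 33.7 CPM in WT. B cell markers were highest in WT replicate 1, at 279 CPM against 117 to 189 CPM elsewhere.

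None of the 35 genes passed the threshold of an adjusted p under 0.05, with edgeR (quasi-likelihood test, Benjamini-Hochberg adjustment over the 12768 genes tested). In simulated data this test recovered 10% of genes changed 1.2-fold, so a gene that did not pass may still differ by that much or more. Of all tested genes 0.674% passed, 0.454% higher and 0.219% lower in KO. At an unadjusted p under 0.05 there were 8 of the 35, 7 higher and 1 lower in KO, or 22.9%, against 15.1% of all tested genes (8.47% higher and 6.6% lower). DESeq2 called 3 of the 35, Ski, Smurf2 and Tgfbi, all higher in KO, among 527 calls over all genes. It was run on all genes with any counts, not on the 12768, and the matching share was not computed. In 12 of the 35 all KO samples lay above all WT samples, and in 0 all lay below. Over all tested genes the groups did not overlap in 22.8%, with 11.9% higher and 10.9% lower in KO. By deposited TPM (a level scaled by gene length and library total) 8 of the 35 were higher without overlap and 1 was lower, against 9.69% and 11.7% of all tested genes. The median log2 fold change was 0.094 over the 35 genes, 23 of them above 0, and -0.003 over all tested genes. Without WT replicate 1 the median was 0.032, with 20 genes above 0 and 15 below.

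The promoter stretches below belong to the genes whose samples did not overlap at an unadjusted p under 0.05 and that had a single RefSeq promoter. They are shown with matches to SMAD-type motifs, where there are any. Each runs 5′ to 3′ from 250 to 71 bases before the RefSeq start site (GRCm38.p6), a stretch outside the GENCODE gene. Capitals mark the SMAD box CAGAC, searched on both strands, and the GC-rich motif GGCGCC, which reads the same on both. The palindrome GTCTAGAC, which overlaps neither of them, was searched too.
Smurf2 (chr11:106920786-106920965, minus strand): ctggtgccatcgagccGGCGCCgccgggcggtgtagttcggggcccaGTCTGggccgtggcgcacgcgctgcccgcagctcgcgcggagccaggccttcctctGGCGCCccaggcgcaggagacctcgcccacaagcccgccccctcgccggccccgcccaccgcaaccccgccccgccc 
Ski (chr4:155222606-155222785, minus strand): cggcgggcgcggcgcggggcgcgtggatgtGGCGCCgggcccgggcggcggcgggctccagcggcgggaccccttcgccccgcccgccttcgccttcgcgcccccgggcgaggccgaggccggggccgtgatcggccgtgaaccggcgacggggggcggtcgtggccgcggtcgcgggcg 
Tgfbr2 (chr9:116175434-116175613, minus strand): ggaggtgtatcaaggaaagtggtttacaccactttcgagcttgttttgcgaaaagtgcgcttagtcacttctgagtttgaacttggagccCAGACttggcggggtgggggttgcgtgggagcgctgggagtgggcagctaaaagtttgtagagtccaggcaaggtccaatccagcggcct 
Acvr1b (chr15:101173822-101174001, plus strand): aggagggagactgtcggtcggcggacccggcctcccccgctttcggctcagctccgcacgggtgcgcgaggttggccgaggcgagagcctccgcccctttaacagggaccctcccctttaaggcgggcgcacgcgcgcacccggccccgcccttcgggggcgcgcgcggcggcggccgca 
Tgfbi (chr13:56609336-56609515, plus strand): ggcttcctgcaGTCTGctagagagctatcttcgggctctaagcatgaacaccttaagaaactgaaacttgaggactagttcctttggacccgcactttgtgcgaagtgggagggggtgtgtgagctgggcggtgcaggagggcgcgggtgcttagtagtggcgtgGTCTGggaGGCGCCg

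Smurf2 held 2 copies of GGCGCC and 1 of CAGAC, Tgfbi held 1 and 2, Ski held 1 of GGCGCC, Tgfbr2 held 1 of CAGAC, and Acvr1b held none. Among the 35 genes 24 had a promoter in the table, with 35 windows in all, some of them overlapping. CAGAC was found in 37.1% of these windows and in 33.2% of all 32851 promoter windows of this length. GGCGCC was found in 31.4% and 6.19%, and the windows' median GC content was 61.7% and 51.1%. GTCTAGAC was found in 0 of the 35 windows and in 0.137% of all windows. These are letter matches in a short stretch.

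Levels per gene length, in TPM, ran from 0.300 for Zfyve9 to 337 for Rgs16 as means over the 6 libraries. Rgs16, which encodes a regulator of G protein signalling, stood above each other gene in every library, and 7 genes had a mean over 100 TPM. After it came Furin at 236, Pmepa1 at 212, Tgfbr1 at 167, Skil at 144, Ski at 141 and Id2 at 103 TPM. Furin and Pmepa1, Skil and Ski, and Id2 and Tgfbr2 (92.7 TPM) changed places between libraries, so their order is not resolved. Tgfbr1 was above Skil in every library. The latent TGF-beta binding proteins and Tgfb3, the 1 ligand gene of the 35, stood at the other end: Ltbp4 had a mean of 0.432 TPM, Tgfb3 of 0.403 TPM and Ltbp3 of 0.314 TPM. Tgfb1, a ligand gene outside the 35, had a mean of 273 TPM, above all of them but Rgs16. The receptors thus ranged from abundant (Tgfbr1) to scarce (Bambi, a decoy receptor, at 1.48 TPM), and Tgfbr1 and Tgfbr2 exceeded the BMP receptors Bmpr2 (20.8 TPM) and Bmpr1a (3.17 TPM). Tgfbr3, at a mean of 14.4 TPM, was below Bmpr2 in every library.

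**Figure D1:**
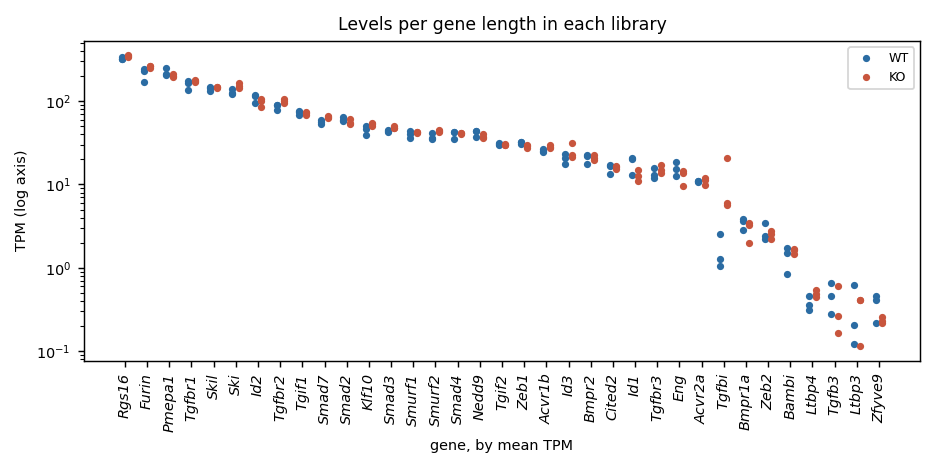
TPM on a log axis for each of the 35 genes, ordered by mean TPM, with 1 point per library (blue, WT; red, KO). Rgs16 leads at a mean of 337 TPM, 4 genes lie under 1 TPM, and Tgfbi is the gene whose WT and KO points are farthest apart.

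Among the ligands and the proteins that process them, Furin, the protease that cleaves the TGF-beta precursor, was the most abundant. It stood at 375, 548 and 500.2 CPM in WT replicates 1 to 3 and at 586, 562 and 534 CPM in KO replicates 1 to 3. WT replicate 1 was well below the other 5 libraries, and the groups overlapped. The Furin log2 fold change of 0.24 (SE 0.13, edgeR adjusted p = 0.434) was 0.10 without WT replicate 1. Ltbp4, a latent TGF-beta binding protein, was higher in every KO sample (1.5, 1.31 and 1.13 CPM) than in any WT sample (0.888, 0.959 and 1.03 CPM), at a log2 fold change of 0.45 (SE 0.22, edgeR adjusted p = 0.389). It rests on 125 counts in all WT samples and 163 in all KO samples. Ltbp3, of the same family, was at 0.12 (SE 0.40) with 52 and 55 counts. Tgfb3, the ligand gene, was at -0.46 (SE 0.52, edgeR adjusted p = 0.714), with 113 and 75 counts and overlapping groups. Single libraries set its size: it was -0.10 without KO replicate 1, -0.15 without WT replicate 1 and -1.11 without KO replicate 2. Tgfb3 lies 921900 bases from Dlst on chromosome 12.

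The receptor genes held 2 of the 7 higher genes at an unadjusted p under 0.05. Tgfbr2, the type II receptor for TGF-beta, was at 214, 249.8 and 248 CPM in WT and at 295, 265 and 276 CPM in KO. Every KO sample exceeded every WT sample, with means of 237 ± 19.8 and 279 ± 15.0 CPM (SD, n = 3 each). This is a log2 fold change of 0.23 (SE 0.07, 95% interval 0.06 to 0.40), and it did not pass (edgeR adjusted p = 0.215). Without WT replicate 1 it was 0.16, and its counts had decimals, so part of its reads was shared out by estimation. Tgfbr2 lies on the minus strand of chromosome 9 from 116084293 to 116175360 (GENCODE M21, GRCm38). Acvr1b, the type I receptor for activin, was at 64.2, 62.8 and 66.4 CPM in WT and at 75.8, 70.4 and 72.2 CPM in KO. Its groups were narrow and did not overlap. The Acvr1b log2 fold change was 0.18 (SE 0.05, 95% interval 0.05 to 0.30, edgeR adjusted p = 0.191), and it lay between 0.15 and 0.20 when any single library was left out. The Acvr1b gene spans 101174067 to 101213684 of chromosome 15, plus strand.

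Tgfbr1, the signalling type I receptor, was at 347, 454 and 467 CPM in WT and at 483, 496 and 480.1 CPM in KO. The groups did not overlap, but WT replicate 1 set most of the difference: the log2 fold change of 0.20 (SE 0.11, edgeR adjusted p = 0.424) was 0.08 without it. Tgfbr3, betaglycan, which presents ligand to the other receptors, was at 0.17 (SE 0.11) with overlapping groups, and at 0.08 without KO replicate 1. Eng, which encodes the coreceptor endoglin, was at 21.6, 32.8 and 27.4 CPM in WT and at 17.0, 24.3 and 22.9 CPM in KO, with overlap and a log2 fold change of -0.35 (SE 0.18, edgeR adjusted p = 0.417). The lowest Eng value of all was in KO replicate 1, and the log2 fold change was -0.21 without it and -0.20 without WT replicate 2. Lamc3, which passed the test, lies 700056 bases from Eng. Of the other BMP and activin receptors, Bmpr2 had a log2 fold change of 0.01 (95% interval -0.23 to 0.25) and Acvr2a of 0.02 (-0.15 to 0.20). Bmpr1a was at -0.21 (-0.70 to 0.27), a value set by KO replicate 1: it was -0.01 without that library and -0.38 without KO replicate 2. Bambi, whose protein resembles a type I receptor without the kinase, was at 2.47 CPM in WT replicate 1 and between 4.25 and 5.02 CPM elsewhere. Its fold change of 0.21 (SE 0.25) turned to -0.03 without that library.

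**Figure D2:**
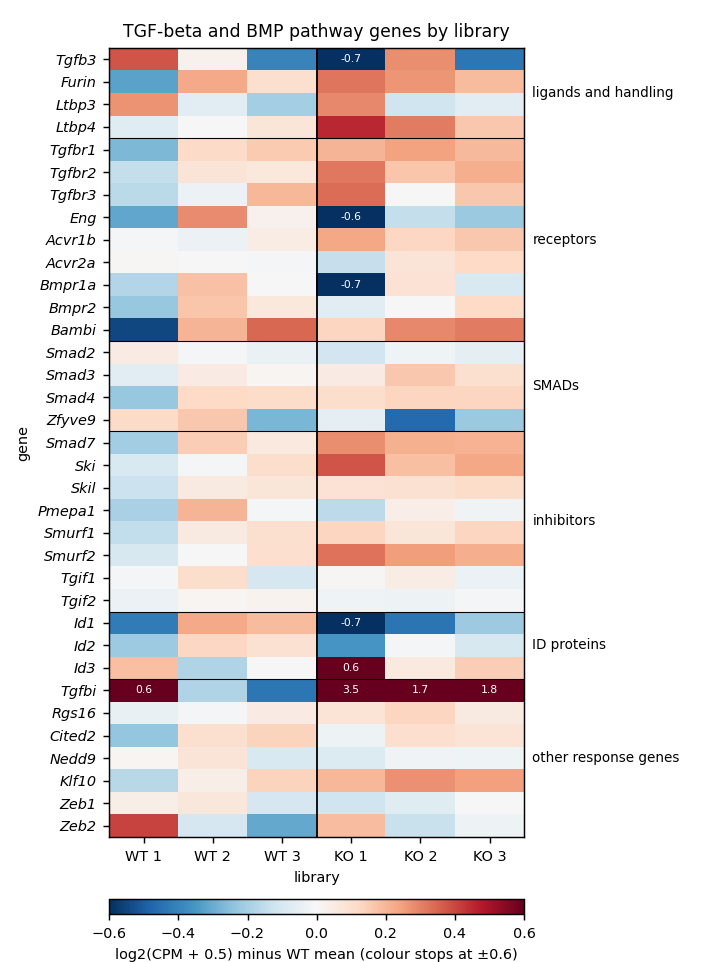
Each row is a gene, grouped by role, and each column a library; colour gives log2(CPM + 0.5) minus the mean of the WT libraries, and values past ±0.6 are printed. WT 1 is blue in many rows, and Tgfbi is the row with the strongest red in all 3 KO columns.

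The SMAD genes differed little. Smad2, the most abundant of them per length, was at 77.6, 74.6 and 73.0 CPM in WT and at 69.2, 73.6 and 72.3 CPM in KO. Its groups overlapped, and its log2 fold change was -0.07 (SE 0.05, 95% interval -0.18 to 0.05, edgeR adjusted p = 0.584). Smad3, its partner as a receptor substrate, was at 105, 113 and 110.5 CPM in WT and at 113, 123 and 117 CPM in KO. Each KO value was above each WT value, though KO replicate 1 and WT replicate 2 round to the same level, at a log2 fold change of 0.10 (SE 0.06, edgeR adjusted p = 0.427). Smad4, the shared partner, was at 57.5 CPM in WT replicate 1 and between 72.6 and 74.0 CPM in the other 5 libraries, and its log2 fold change of 0.11 was 0.01 without that replicate. Zfyve9, which encodes an anchor that brings SMADs to receptors, was at -0.37 (SE 0.30) from 132 counts in WT and 99 in KO, and ran from -0.56 to -0.22 with single libraries left out.

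The inhibitors of the pathway held 3 of the 7 higher genes, Smurf2, Ski and Smad7. Smurf2, a ubiquitin ligase that targets receptors and SMADs, was at 78.8, 84.3 and 90.4 CPM in WT and at 106, 101 and 98.1 CPM in KO. The groups did not overlap, with means of 84.5 ± 5.82 and 102 ± 4.00 CPM (SD, n = 3 each). Smurf2 had a log2 fold change of 0.27 (SE 0.06, 95% interval 0.12 to 0.42), the smallest adjusted p of the 35 genes (0.133 by edgeR), and a range of 0.22 to 0.32 when single libraries were left out. DESeq2 gave an adjusted p of 0.0199. Smurf2 lies on the minus strand of chromosome 11 from 106820066 to 106920715.

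Ski, a corepressor that binds SMADs, was at 377, 397 and 431 CPM in WT and at 522, 454 and 471 CPM in KO. All KO samples were above all WT samples, and KO replicate 1 was the highest. Means were 402 ± 27.5 and 482 ± 35.1 CPM (SD, n = 3 each), and the log2 fold change was 0.26 (SE 0.07, 95% interval 0.09 to 0.43, edgeR adjusted p = 0.171). DESeq2 gave an adjusted p of 0.0312, and without KO replicate 1 the log2 fold change was 0.20. Ski lies on the minus strand of chromosome 4 from 155154075 to 155222592, and Mxra8, which passed the test, is 617088 bases away. Its relative Skil was at 344, 391 and 395 CPM in WT and at 399, 400.4 and 406 CPM in KO. Again the groups did not overlap, but WT replicate 1 was the sole distant value: the Skil log2 fold change of 0.09 (SE 0.06, edgeR adjusted p = 0.527) was 0.03 without it.

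Smad7, the inhibitory SMAD that TGF-beta induces, was at 96.1, 123 and 116 CPM in WT and at 135, 129 and 128 CPM in KO. Its KO samples lay close together and above all WT samples, of which replicate 1 was the lowest. The log2 fold change was 0.23 (SE 0.09, 95% interval 0.02 to 0.43, edgeR adjusted p = 0.297) and 0.13 without WT replicate 1. Pmepa1, a feedback inhibitor and the most abundant gene of this role per length, showed nothing of the kind. It was at 213, 280.3 and 242 CPM in WT and at 218, 251 and 239.8 CPM in KO, at a log2 fold change of -0.05 (SE 0.10, 95% interval -0.29 to 0.19). Smurf1, the other SMURF ligase, was at 0.11 (SE 0.07) with overlapping groups, and at 0.04 without WT replicate 1. The corepressors Tgif1 (95% interval -0.14 to 0.15) and Tgif2 (-0.13 to 0.09) were centred near 0. Sla2, which passed the test, lies 16887 bases from Tgif2.

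**Figure D3:**
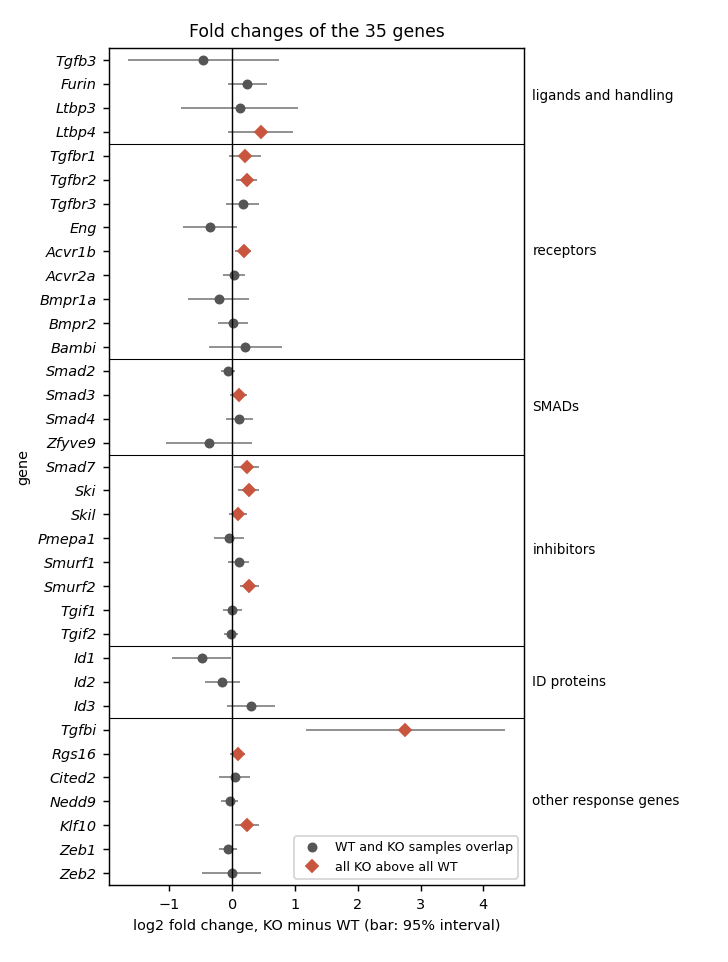
Log2 fold change of KO against WT with its 95% interval for each gene, by role; red diamonds mark the 12 genes in which all KO samples lay above all WT samples. Tgfbi stands alone at 2.76 with the widest interval, and the other red points lie between 0.09 and 0.45.

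The ID proteins bind other helix-loop-helix factors and keep them from DNA. Id1, a target of BMP, was the 1 gene lower in KO at an unadjusted p under 0.05. It was at 7.02, 11.3 and 11.0 CPM in WT and at 5.89, 6.93 and 8.16 CPM in KO, so WT replicate 1 fell within the KO range. The Id1 log2 fold change was -0.49 (SE 0.20, 95% interval -0.96 to -0.02, edgeR adjusted p = 0.317) and -0.37 without KO replicate 1. Id2, the most abundant of the family per length, was at 67.2, 85.4 and 83.4 CPM in WT and at 61.1, 77.8 and 73.3 CPM in KO. In each group replicate 1 was the lowest, the groups overlapped, and the log2 fold change was -0.16 (SE 0.12, edgeR adjusted p = 0.573). It was -0.26 without WT replicate 1 and -0.06 without KO replicate 1. Id3 went the other way, at 17.1, 13.2 and 15.0 CPM in WT and 23.3, 15.7 and 16.7 CPM in KO. KO replicate 1 alone was above all WT samples, and the Id3 log2 fold change of 0.30 (SE 0.16) was 0.10 without it.

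Tgfbi, an extracellular matrix protein induced by TGF-beta, had the largest difference of the 35 genes. It was at 3.91, 2.05 and 1.64 CPM in WT and at 32.3, 8.96 and 9.29 CPM in KO. The groups did not overlap, and KO replicate 1 was more than 3 times the other KO samples. Means were 2.53 ± 1.21 and 16.8 ± 13.4 CPM (SD, n = 3 each). The Tgfbi log2 fold change was 2.76 (SE 0.65, 95% interval 1.17 to 4.35) and did not pass (edgeR adjusted p = 0.156). It was 1.87 without KO replicate 1 (adjusted p = 0.0914 by edgeR). The Tgfbi gene spans 56609523 to 56639562 of chromosome 13, plus strand.

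Markers of some other cell types were higher in KO, as Tgfbi was. All KO samples lay above all WT samples in 9 of the 14 monocyte and macrophage markers listed and in 9 of the 10 neutrophil markers listed. Monocyte and macrophage markers summed to 45.9, 29.0 and 26.0 CPM in WT and to 413, 115 and 125 CPM in KO. The sums put the 6 libraries in the same order as Tgfbi, but Lyz2 alone made up 316 of the 413 CPM in KO replicate 1. Other markers broke that order: Adgre1 was lowest in WT replicate 1, Cd68 was highest of the WT samples in replicate 2, and C1qa was highest in KO replicate 2. No marker of either list was at 0 in every library, but 6 of the 14, among them C1qa, C1qb and C1qc, stayed under 1 CPM throughout. Mast cell and basophil markers summed to between 0.99 and 2.49 CPM in WT and between 3.47 and 6.31 CPM in KO. In 4 of the 5 listed all KO samples lay above all WT samples, and Prss34 passed (edgeR adjusted p = 0.0193). Mrc1, of the monocyte and macrophage list, passed too (log2 fold change 2.37, edgeR adjusted p = 0.0449), at 1.48 CPM or less. It was the 1 gene of that list to pass, and no neutrophil marker did. Of 6 dendritic cell markers Itgax was the 1 that passed (1.60, edgeR adjusted p = 0.0472) and the 1 without overlap. Of 6 CD8 and NK markers 2, Cd8a and Cd8b1, were higher in every KO sample than in any WT sample. In the B cell, erythroid and platelet, and stromal and endothelial lists 0 markers were without overlap. The sort was for CD4+ FoxP3-GFP+ tdTomato-RFP+ cells. How far it removed these cell types was not tested, nor was their part in the Tgfbi difference. In bulk samples more cells of a type and more RNA per cell cannot be told apart.

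**Figure D4:**
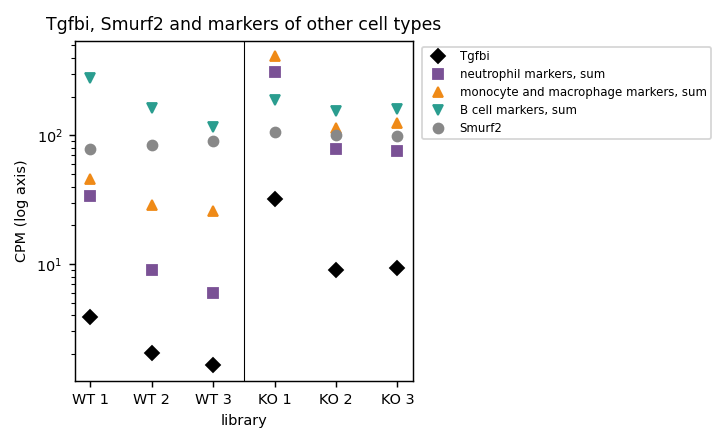
CPM on a log axis in each library for Tgfbi, for Smurf2 and for the summed markers of neutrophils, of monocytes and macrophages, and of B cells. Tgfbi and the myeloid sums are highest in KO 1, while Smurf2 stays between 78.8 and 106 CPM.

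Klf10, a transcription factor gene that TGF-beta induces early, was at 63.0, 72.5 and 77.6 CPM in WT and at 81.3, 85.6 and 84.0 CPM in KO. The KO samples were tightly grouped above all WT samples, of which replicate 1 was again the lowest. Its log2 fold change was 0.23 (SE 0.08, 95% interval 0.05 to 0.42, edgeR adjusted p = 0.231) and 0.16 without that replicate. Rgs16 was at 426, 437 and 455 CPM in WT and at 465, 479.7 and 456 CPM in KO. These groups only just failed to overlap, and the log2 fold change was 0.09 (SE 0.05, edgeR adjusted p = 0.450). The other 4 genes overlapped between groups. Cited2, a coregulator of CBP and p300, was at 0.04 (95% interval -0.21 to 0.29) and the scaffold protein gene Nedd9 at -0.04 (-0.18 to 0.09). The zinc finger repressors Zeb1 and Zeb2 were at -0.06 (-0.21 to 0.08) and -0.01 (-0.49 to 0.46).

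WT replicate 1 was the lowest of the 6 libraries for 19 of the 35 genes, or 54.3%, and for 23.6% of all tested genes. It was the lowest in 10 of the 12 genes whose groups did not overlap. In such genes, all higher in KO, the lowest library has to be a WT sample. The matching share over all tested genes was not computed, and 23.6% does not stand in for it. KO replicate 1 was the highest library for 11 of the 35 genes, or 31.4%, against 27.9% of all tested genes. The median deviation of the 35 genes from the WT mean, on the log2(CPM + 0.5) scale, was -0.10, 0.06 and 0.05 in WT and 0.09, 0.09 and 0.11 in KO. By this median WT replicates 2 and 3 lay nearer to the KO samples than to WT replicate 1. Leaving WT replicate 1 out made 25 of the 35 log2 fold changes lower, a share not computed for all tested genes. The part of its higher B cell markers in these values was not tested.

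**Figure D5:**
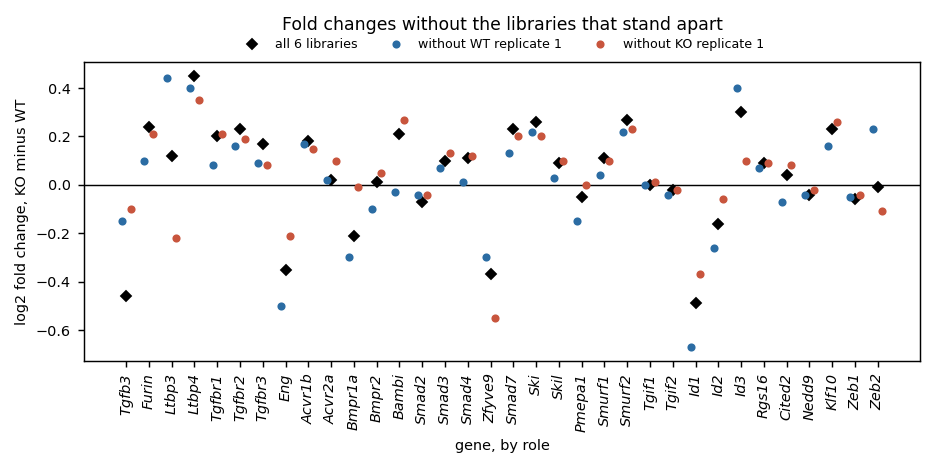
Log2 fold change of KO against WT for 34 genes (all but Tgfbi, which is off this scale) with all libraries (black), without WT replicate 1 (blue) and without KO replicate 1 (red). Many blue points, such as those of Furin, Tgfbr1, Smad4, Smad7 and Skil, lie closer to 0 than the black ones.

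Another 78 genes of the pathway were listed beside the 35, and 56 of them had enough counts to be tested. None passed in either direction by edgeR, and 6 had an unadjusted p under 0.05, or 10.7% (5 higher, 1 lower). DESeq2 called Acvr1c and Dab2, both higher in KO, and its share of calls over all genes was not computed. The groups did not overlap in 23.2% of the 56, close to the 22.8% of all tested genes, and the median log2 fold change was 0.013. Tgfb1, the main TGF-beta ligand of T cells, was at 308, 369.9 and 353 CPM in WT and at 328, 335 and 332 CPM in KO. Its groups overlapped, and its log2 fold change was -0.05 (SE 0.07, 95% interval -0.22 to 0.11, edgeR adjusted p = 0.765).

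The 4 with the smallest unadjusted p were Acvr1c, Dab2, Itgb8 and Nedd4l. Acvr1c, another activin-type receptor, was at 1.28, 1.21 and 2.17 CPM in WT and at 4.71, 2.42 and 3.06 CPM in KO (log2 fold change 1.13, SE 0.32, edgeR adjusted p = 0.181). Dab2, an endocytic adaptor that macrophages also express, was at 0.222, 0.405 and 0.732 CPM in WT and at 2.38, 1.13 and 0.978 CPM in KO (1.71, SE 0.50, edgeR adjusted p = 0.185). Both were low in all libraries and highest in KO replicate 1, as the summed myeloid markers were. Within WT both were highest in replicate 3, where those sums were lowest, and the part of myeloid cells in them was not tested. Itgb8, the integrin chain with which Treg cells activate latent TGF-beta, was at 3.69, 1.68 and 1.10 CPM in WT and at 0.779, 0.806 and 0.952 CPM in KO (-1.34, SE 0.44, edgeR adjusted p = 0.228). Its highest value was in WT replicate 1, and without that library its log2 fold change was -0.72. Nedd4l, a ligase for SMADs, was at 11.5, 12.1 and 13.1 CPM in WT and at 20.0, 13.6 and 15.5 CPM in KO (0.42, SE 0.14, edgeR adjusted p = 0.232). It was highest in KO replicate 1, and its log2 fold change without that library was 0.25.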

How the data were processed

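The authors deposited estimated counts and TPM for each gene and sample. The submitters' processing notes name FastQC and HISAT2 without versions; counting program, build and annotation: not given in the sources used here. Identifiers were matched to GENCODE M21 (21806 of 21899). Estimated counts were rounded, filtered by filterByExpr (12768 genes tested, 9131 not) and scaled by TMM (factors 0.988 to 1.01). The genotypes were compared with edgeR 4.0.16 (quasi-likelihood F test, two-sided, robust, no covariate) in R 4.3.3, with Benjamini-Hochberg adjustment over all tested genes. Intervals are at 95%. Alternatives used DESeq2 1.42.0, and limma 3.58.1 on log2(TPM + pseudocount 1 or 0.1). Python 3.11.15, pandas 2.3.3 and matplotlib 3.10.9 made tables and figures. In simulated data the test recovered 10% of 50 genes changed 1.2-fold, 68% at 1.5-fold, 88% at 2-fold and 94% at 4-fold. Of its 138 calls there 8 were false. Most changes near 1.2-fold were thus missed. The simulated libraries took their spread from each gene's level alone, and none of them stood apart, as replicate 1 of each group does here. Recovery in the real data may therefore be lower. Tgfbi, at a log2 fold change of 2.76, did not pass.

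The 35 genes, the roles and the other lists were chosen with earlier results of these data known, so no list was tested. All 35 genes are named. Given in full are genes past the threshold or with no overlap at an unadjusted p under 0.05, and the most abundant of each role. Of the other pathway genes, the 4 of smallest p are given. Id1, Tgfb1, Lamc3, Mxra8, Sla2 and some further values were added after seeing them. Counts of 4 of the 35 (Tgfbr2, Ltbp3, Eng, Acvr2a) had decimals, and 14 overlap another annotated gene; the sources used here do not give strand use in counting. KO replicates 2 and 3 were closer to each other (biological coefficient of variation 2.97%) than other pairs (7.12 to 14.8%), beyond sampling noise.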

Additional observations from a re-analysis of the deposited data

How the results depend on the processing

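The results rest on 3 samples a group, and differences of the size seen in most of the 35 genes are near the spread between libraries. The count of calls over all genes, 86 (58 higher, 28 lower), was 527 with the DESeq2 test (366 and 161), 133 with no low-count filter (92 higher), 39 with limma on log2(TPM + 1) (26 and 13), 538 without replicate 1 of both groups (311 and 227) and 8 with KO replicates 2 and 3 summed (6 and 2). When single libraries were left out it ran from 4 to 93, with 3 to 56 higher and 1 to 40 lower. Leaving out WT replicate 2 gave 27 calls and WT replicate 3 gave 16, KO replicate 2 gave 10 and KO replicate 3 gave 4. The 0 calls among the 35 genes became 3 with the DESeq2 test (Ski, Smurf2, Tgfbi) and 2 without replicate 1 of both groups (Tgfbi and Id1, adjusted p 0.000273 and 0.0281). The 0 calls among the other pathway genes became 2 with the DESeq2 test and 1, Map3k7, without replicate 1 of both groups; each stayed at 0 with each single library left out. With the replicate number as a block 177 genes were called (134 and 43), and 1 of the 35, Tgfbi (2.58, adjusted p = 0.0119). Same-numbered samples had correlations of deviations of 0.184, 0.0780 and 0.0841, and differently numbered ones ran from -0.145 to 0.112. The highest value was that of the replicates numbered 1. These values do not settle whether the numbers pair the samples, and the main fit took the samples as unpaired.

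The median log2 fold change of the 35 genes ran from 0.032 to 0.109 with single libraries left out. With single libraries left out the 12 genes with no overlap, higher in KO, became 13 to 14, against 14.7 to 17.9% of all tested genes, and the 0 lower became 0 to 4, against 13.4 to 18.3%. Without replicate 1 of both groups 15 were higher and 4 lower, against 25.5 and 24.9% of all tested genes. By deposited TPM, a setting added after seeing the data, 8 were higher and 1, Zeb1, was lower. The sign was the same in every setting run for 25 of the 35 genes. Without replicate 1 of both groups it turned for Tgfb3 (0.21), Tgfbr3 (-0.0028), Bmpr2 (-0.05), Tgif1 (-0.0013), Cited2 (-0.02) and Zeb2 (0.13). With KO replicates 2 and 3 summed it turned for Acvr2a (-0.01), Bmpr2 (-0.01) and Zeb2 (0.03), with limma on TPM for Tgif1 (-0.03 at both pseudocounts) and with the block for Zeb2 (0.01). With single libraries left out the values ran from -0.22 to 0.44 for Ltbp3, -0.03 to 0.10 for Acvr2a, -0.10 to 0.10 for Bmpr2, -0.03 to 0.41 for Bambi and -0.15 to 0.06 for Pmepa1. They ran from -0.05 to 0.06 for Tgif1, -0.07 to 0.11 for Cited2, -0.17 to 0.23 for Zeb2 and -0.13 to 0.0038 for Tgfb1. Why these values changed was not tested.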
